A study of Mus musculus with 6 samples.

Results

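Ccl3, Ccl4 and Ccl5 encode 3 inflammatory CC chemokines, and Ccr1 encodes a receptor that binds Ccl3 and Ccl5. These 4 of the 32285 genes in the deposited count matrices were chosen by gene symbol alone, with earlier results of these data known, and their unique molecular identifiers (UMIs, each one captured transcript) were summed per sample in 7 leukocyte lineages. Droplet 5′ single-cell RNA-Seq was performed on cells enriched with CD45 beads from B16-F10 melanomas, a mouse melanoma line grown in syngeneic hosts, after the tumors had been dissociated, frozen and thawed. The hosts were female C57BL/6 mice aged 6 to 10 weeks at the start. All of them received the anti–PD-1 antibody (αPD-1, clone 29F.1A12) at 150 µg per mouse 3 times per week from day 7 after engraftment. In the αPD-1 group (3 samples) no corin was given, and the labels list 5% DMSO in PBS as the control for corin. In the αPD-1 + corin group (3 samples) the mice also received daily intraperitoneal corin, an inhibitor of the CoREST chromatin complex, at 200 µg per mouse from day 6. Each arm held 10 mice; which and how many mice entered each sample is not given in the sources used here, so the p-values below measure the spread between samples only.

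Chemokines are small secreted proteins that guide leukocytes along concentration gradients through G protein–coupled receptors. Ccl3 and Ccl4 (macrophage inflammatory proteins 1α and 1β) are made by activated T cells, NK cells and myeloid cells. Ccl5 (RANTES) is a product of effector and memory T cells, NK cells and mature dendritic cells (DC), and Ccr1 is carried mainly by neutrophils, monocytes and macrophages, which it recruits to inflamed tissue.

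The 3 ligand genes lie in one chemokine cluster on mouse chromosome 11, and Ccr1 lies on chromosome 9. Positions are those of each gene's Ensembl canonical transcript in the GRCm39 assembly with GENCODE M39 annotation. Ccl5 (chr11:83416602-83421345, minus strand), Ccl3 (chr11:83538670-83540191, minus strand) and Ccl4 (chr11:83553383-83555509, plus strand) have 3 exons each. The annotated Ccl5 gene is longer (chr11:83416602-83425942), so the start used for Ccl5 and the window before it lie within that gene. Ccl3 and Ccl4 are transcribed away from each other from starts 13192 bases apart, whereas the Ccl5 start is 117325 bases from the nearest end of Ccl3. Ccr1 (chr9:123762161-123768734, minus strand) has 2 exons, and no canonical transcript of another protein-coding gene overlapped any of the 4 transcripts. The 250 bases before each ligand's start are shown because the 3 genes share one cluster while the order of their levels over the lineages was not the same, 5′ to 3′ on the gene's own strand, with motif matches in capitals.
Ccl3: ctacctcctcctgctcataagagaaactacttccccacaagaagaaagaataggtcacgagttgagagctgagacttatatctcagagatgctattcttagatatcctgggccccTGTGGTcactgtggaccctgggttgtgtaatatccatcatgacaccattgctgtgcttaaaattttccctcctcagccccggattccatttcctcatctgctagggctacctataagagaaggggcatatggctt
Ccl4: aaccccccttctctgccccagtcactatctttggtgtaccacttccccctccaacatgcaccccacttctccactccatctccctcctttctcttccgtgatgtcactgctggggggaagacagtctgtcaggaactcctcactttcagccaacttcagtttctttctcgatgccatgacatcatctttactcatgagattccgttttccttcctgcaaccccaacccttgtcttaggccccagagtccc
Ccl5: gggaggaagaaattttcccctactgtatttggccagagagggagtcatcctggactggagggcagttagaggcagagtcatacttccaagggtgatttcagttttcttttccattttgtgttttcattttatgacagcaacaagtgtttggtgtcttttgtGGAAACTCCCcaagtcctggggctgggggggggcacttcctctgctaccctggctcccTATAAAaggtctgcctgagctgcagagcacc

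The windows span chr11:83540192-83540441 for Ccl3, chr11:83553133-83553382 for Ccl4 and chr11:83421346-83421595 for Ccl5. Each was searched on both strands for the TATA box (TATAAA), the AP-1 motif (TGANTCA), the CRE motif (TGACGTCA), the RUNX core (TGTGGT) and the NF-kB consensus. The capitals in Ccl3 mark the RUNX core, which lies 135 to 130 bases before the start. The capitals in Ccl5 mark the NF-kB match on the opposite strand at 89 to 80 bases and TATAAA at 31 to 26 bases before the start. No searched motif was found in the Ccl4 window, and the Ccr1 window held an NF-kB match and TGTGGT on the opposite strand. Among 21770 windows of the same length before protein-coding genes, TATAAA occurred in 11.9%, TGTGGT in 13.0% and the NF-kB consensus in 7.62%. Position by position, the Ccl3 and Ccl4 windows were identical at 69 of 250 bases, the Ccl3 and Ccl5 windows at 54 and the Ccl4 and Ccl5 windows at 61. The Ccl3 and Ccr1 windows, which lie on different chromosomes, were identical at 71.

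After filtering, 28866 of 52899 barcodes were kept (3663 to 7860 cells and 16636062 to 33270686 UMIs per sample), and 15342 of them (53.1%) fell into the 7 lineages. Defining markers were higher in their own lineage than in the other 6 for 12 of 12 CD8 T cell, 12 of 12 CD4 T cell, 10 of 10 NK cell, 13 of 13 macrophage, 12 of 13 monocyte, 12 of 12 neutrophil and 12 of 12 mature DC genes, and none was at 0. This marker outcome was largely set in advance, because clusters were named from marker lists and T cells divided by Cd8a, Cd8b1 and Cd4 UMIs. A further 3621 cells carried transcripts of T cells together with those of B cells or macrophages and were kept apart as mixed. They made up 21.7% of the cells under αPD-1 alone and 6.18% under αPD-1 + corin on average. Lineages were unequal in size between the groups: neutrophils numbered 17, 14 and 12 cells under αPD-1 alone and 584, 1205 and 87 under αPD-1 + corin, and αPD-1 + corin sample 3 held 732 of the 910 CD8 T cells of its group. Of the 52600 distinct barcodes, 299 occurred in more than 1 library (10 to 32 per pair of libraries), with a median gene overlap (Jaccard index) of 0.108 between the cells that shared one. Levels below are UMIs of the gene per 1000000 UMIs of the lineage in that sample (CPM), a measure in which more transcripts per cell and more transcribing cells cannot be told apart.

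Ccl3 was highest in neutrophils. Its mean level over the 6 samples was 4380 CPM there, followed by CD8 T cells at 928, monocytes at 580, macrophages at 557, NK cells at 409, CD4 T cells at 382 and mature DC at 150 CPM. Means for mature DC are over the 4 samples with at least 10 such cells, so their place in each order is not set by the same samples. In those 4, CD4 T cells were above mature DC for Ccl3 in 1 and for Ccl4 in 2. Neutrophils were above CD8 T cells in 6 of 6 samples, by 2.36 ± 0.63 on the log2(CPM + 1) scale (mean ± SD). Ccl4 was highest in neutrophils as well (2697 CPM), followed by macrophages (1066), CD8 T cells (1039), NK cells (849), monocytes (731), CD4 T cells (520) and mature DC (440).

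Ccl5 followed a different order. It was highest in NK cells (4737 CPM), CD8 T cells (4184) and mature DC (3762), intermediate in CD4 T cells (1275) and neutrophils (784), and lowest in macrophages (193) and monocytes (135). CD4 T cells were above neutrophils in 6 of 6 samples, by 1.48 ± 1.33. For Ccr1, neutrophils were highest (405 CPM), then monocytes (217) and macrophages (134), each step being seen in 6 of 6 samples (0.90 ± 0.38 and 0.76 ± 0.43 on the log2 scale). In the 4 samples with mature DC, CD8 T cells were above them for Ccl5 in 2, and mature DC above CD4 T cells for Ccr1 in 2. Mature DC (24.6), CD4 T cells (17.9) and CD8 T cells (3.00) held few Ccr1 UMIs, and NK cells held 0. A count of 0 in 182 αPD-1 and 234 αPD-1 + corin NK cells allows up to 1.65% and 1.28% of NK cells with a UMI, counting error only. Of the 24 steps between neighboring lineages, these 4 were ordered alike in 6 of 6 samples. Each of them had p = 0.03125 in the two-sided exact sign-flip permutation test, the smallest that 6 samples allow, and adjusted p = 0.188 over the 24 steps. The other neighbors changed places in at least 1 sample, or had values in fewer than 6 samples.

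**Figure D1:**
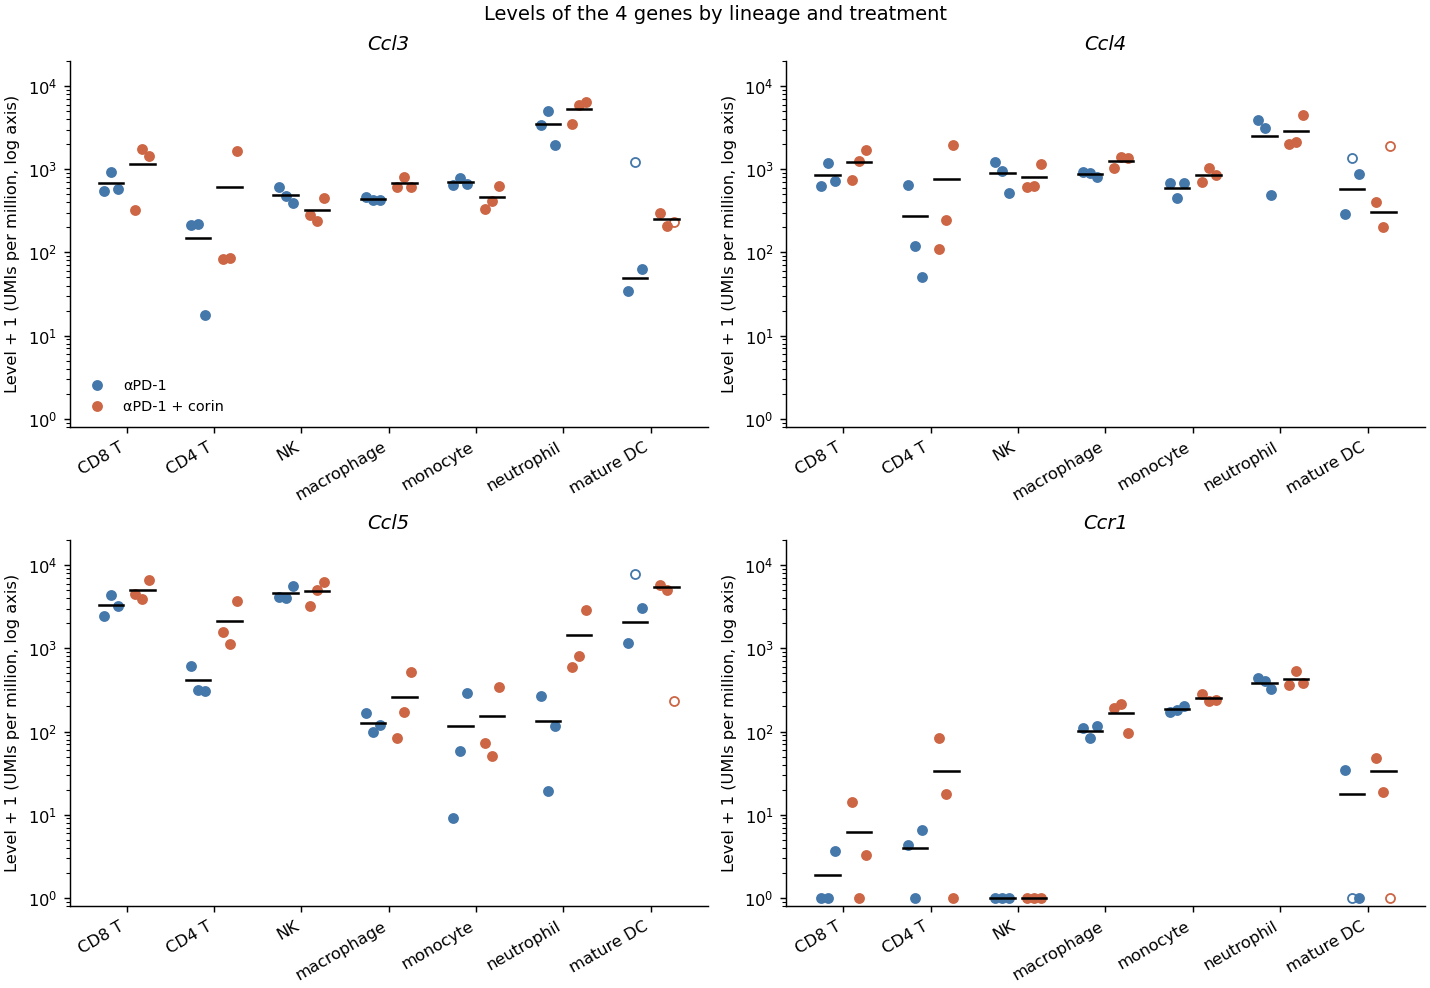
Level of each gene (CPM plus 1, log axis) in each lineage, 1 point per sample and lines at the group means (blue, αPD-1; red, αPD-1 + corin; open circles, samples with fewer than 10 cells, left out of means and tests). Ccl3 and Ccl4 were highest in neutrophils, Ccl5 in NK cells, CD8 T cells and mature DC, and Ccr1 in neutrophils, monocytes and macrophages.

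Across 40 sample-by-lineage sums and 8651 genes, the gene whose level was most like that of Ccl3 was Ccl4 (Pearson's r = 0.82 on log2(CPM + 1)), followed by Csf1 (0.76) and Il1rap (0.74). For Ccl5 the most similar genes were Serpinb6b (0.92), H2-Q7 (0.88) and AW112010 (0.88), and for Ccr1 they were Cd300ld (0.93), Nlrp3 (0.92) and Rhov (0.91). Ccl5 and Ccr1 ran in opposite directions (−0.70), and Ccl5 was unrelated to Ccl3 (−0.13) and Ccl4 (−0.03). The 40 sums come from 6 samples and share their libraries, so these values are descriptive.

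The pairing of Ccl3 with Ccl4 was also seen within single lineages. Among αPD-1 CD8 T cells, 77.1% of cells with a Ccl3 UMI also held Ccl4, against 15.9% of cells without Ccl3. The corresponding values were 86.4% and 43.7% under αPD-1 + corin. In macrophages they were 67.7% and 30.6% (αPD-1) and 79.3% and 43.0% (αPD-1 + corin), and in neutrophils 76.7% and 30.8%, and 79.0% and 45.3%. Ccl3 with Ccl5 was paired this way in αPD-1 CD8 T cells (92.1% against 40.8%) and less apart in αPD-1 + corin CD8 T cells (98.4% against 88.7%). In macrophages these values were 13.7% and 9.37% (αPD-1) and 14.2% and 7.89% (αPD-1 + corin), and in αPD-1 NK cells 94.8% and 85.5%. Cells with more UMIs are likelier to hold any transcript, and these shares were not adjusted for depth. They pool the cells of all samples of a group and were not tested.

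How far the transcripts were concentrated in few cells differed between genes and lineages. In CD8 T cells the tenth of cells with the most Ccl3 held 88.1% of its UMIs under αPD-1 alone and 67.2% under αPD-1 + corin, with up to 148 and 344 UMIs in 1 cell. For Ccl5 the corresponding shares were 55.5% and 32.0%, and 451 of 836 and 860 of 910 CD8 T cells held a UMI. Ccl3 in αPD-1 + corin neutrophils was found in 1790 of 1876 cells, and Ccl5 in αPD-1 NK cells in 161 of 182 cells. In CD4 T cells Ccl3 came from very few cells (18 of 271 and 19 of 101 cells held a UMI), and single cells held up to 60 of 136 and 109 of 168 UMIs.

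The samples allow the question whether corin added to αPD-1 changed these genes within each lineage. Of the 28 gene and lineage pairs, 24 passed the filter on low counts and 1 was called by edgeR's quasi-likelihood test after Benjamini-Hochberg adjustment over all genes of the lineage: Ccl5 in CD4 T cells, which rose. Over all genes the 7 lineages together gave 37612 gene and lineage pairs, of which 2.29% were called. In sign, 20 of the 24 differences were positive and 4 negative. At an unadjusted p under 0.05 there were 16 of 24, against 16.8% of all pairs. DESeq2 called 4 of 24 (Ccl5 in CD4 T cells and neutrophils, Ccl3 and Ccl4 in macrophages), against 2.3% of the 29459 pairs it gave an adjusted p. Ccr1 in CD8 T cells, CD4 T cells, NK cells and mature DC was too low to test.

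**Figure D2:**
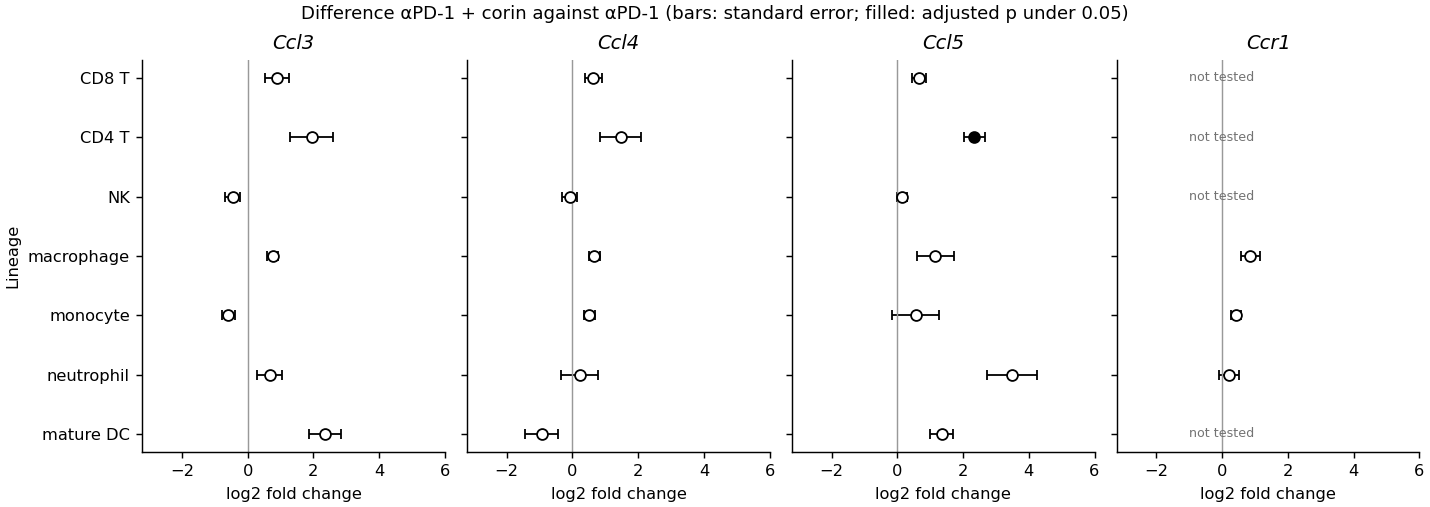
Log2 fold change of each gene in αPD-1 + corin against αPD-1 samples by lineage (edgeR; bars, standard error; filled, adjusted p under 0.05). The filled point is Ccl5 in CD4 T cells (2.34), and most other points lie to the right of 0.

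In CD4 T cells (helper and regulatory T cells), Ccl5 was at 609, 313 and 308 CPM under αPD-1 alone (184, 99 and 56 UMIs) and at 1578, 1130 and 3712 CPM under αPD-1 + corin (58, 202 and 332 UMIs). Every αPD-1 + corin sample lay above every αPD-1 sample. The log2 fold change was 2.34 ± 0.32 (SE, edgeR adjusted p = 4.77e-05), and 2.25% of 3375 genes tested in this lineage were called higher (5.39% in either direction). For 8.49% of genes at 10 CPM or more in this lineage, all αPD-1 + corin samples lay above all αPD-1 samples. The rise was called without each sample in turn (1.55 to 2.76); the smallest, 1.55, came without αPD-1 + corin sample 3. It was not called when T cells were assigned by subcluster rather than by Cd4 and Cd8 UMIs (0.97, adjusted p = 0.298), a fit in which 0.269% of genes were called.

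The make-up of the CD4 T cells differed between the groups. T cells were divided into subclusters by their own clustering. Effector subclusters (led by Prss2, Gzmk and Cxcr6, or by Gzmf, Gzmc and Prf1) made up 3.87% ± 2.37 of CD4 T cells under αPD-1 alone and 20.4% ± 14.2 under αPD-1 + corin. Their ranges, 2.04% to 6.54% and 12.1% to 36.8%, did not overlap and rest on 2 to 7 cells per sample. Their part in the Ccl5 difference was not tested. Subclusters 0, 2, 5 and 10 together made up 57.3% ± 6.35 of CD4 T cells under αPD-1 alone and 9.46% ± 9.11 under αPD-1 + corin, and cells of the Treg subcluster (Foxp3, Tnfrsf4, Areg, Ccr8, Il10) 29.4% ± 6.54 and 61.6% ± 3.21. Of these 4, subcluster 0 (Igfbp4, Dapl1, Id3) counted 124 αPD-1 and 3 αPD-1 + corin CD4 T cells, and subcluster 2 (Klra6, Klra1, Cd7) 11 and 6. With all 4 left out the Ccl5 difference was 2.24 (adjusted p = 0.000417). Within the Treg subcluster alone, Ccl5 was at 801, 496 and 140 CPM under αPD-1 alone and 2278, 1375 and 3395 CPM under αPD-1 + corin. These values rest on 10 to 163 UMIs each and were not tested. At 1000 UMIs per cell, 13.3%, 14.3% and 15.6% of αPD-1 CD4 T cells held a Ccl5 UMI, against 33.3%, 38.8% and 46.9% of αPD-1 + corin CD4 T cells, without overlap, as for 6.99% of genes in this direction. Ccl3 in CD4 T cells (212, 218 and 16.5 against 81.6, 83.9 and 1677 CPM) had a log2 difference of 1.95 (adjusted p = 0.0804). Ccl4 (652, 117 and 49.4 against 109, 246 and 1946 CPM) had one of 1.47 (adjusted p = 0.189). Both groups overlapped for each gene, and without αPD-1 + corin sample 3 the differences were −1.02 and −0.49. Single samples also decided the call: Ccl3 passed without αPD-1 + corin sample 2 (2.68, adjusted p = 0.00748) and Ccl4 without αPD-1 sample 1 (3.15, adjusted p = 0.00465).

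In CD8 T cells, the cytotoxic lymphocytes, all 3 ligands had positive differences that missed the threshold. Ccl5 was at 2433, 4338 and 3241 CPM under αPD-1 alone and 4552, 3874 and 6664 CPM under αPD-1 + corin (log2 fold change 0.65 ± 0.21, adjusted p = 0.0776). Ccl3 was at 554, 924 and 583 against 319, 1734 and 1453 CPM (0.88 ± 0.37, adjusted p = 0.160). The groups overlapped for both genes, αPD-1 + corin sample 1, with 60 cells, being the lowest of all for Ccl3. Ccl4 was at 623, 1196 and 715 against 749, 1258 and 1696 CPM (0.64 ± 0.26, adjusted p = 0.154), again with overlap. In this lineage 7.64% of 7841 genes tested were called, 0 of the 3 ligands among them by edgeR or DESeq2, although 3 of 3 had an unadjusted p under 0.05, as did 24% of all genes tested there.

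The CD8 T cell calls changed with how cells were weighted and with single samples. The median was 2839 UMIs per cell under αPD-1 alone and 3777 under αPD-1 + corin. With each cell thinned to 1000 UMIs, which gives every cell the same depth and the same weight, all 3 were called, at 1.27 for Ccl3 (adjusted p = 0.00140), 0.91 for Ccl4 (0.00532) and 0.94 for Ccl5 (0.000615), as were 13% of genes. With cells weighted equally and no thinning, the mean CPM per cell was 422 under αPD-1 alone and 979 under αPD-1 + corin for Ccl3, 663 and 1183 for Ccl4, and 3464 and 6542 for Ccl5. Depth and weighting were not separated in a test. With T cells classed by subcluster, edgeR called 0 of 7662 genes, none of the ligands among them. Across 17 alternative settings the differences were 0.15 to 1.27 for Ccl3 (called in 2), 0.073 to 0.91 for Ccl4 (called in 2) and 0.16 to 0.94 for Ccl5 (called in 3). Without αPD-1 + corin sample 1, Ccl3 was called at 1.24 (adjusted p = 0.00243) and Ccl4 at 0.85 (0.0406). Without αPD-1 sample 2, Ccl4 was called at 0.99 (adjusted p = 0.0369) and Ccl5 at 0.90 (0.0250), and Ccl5 was called at 0.81 (0.0368) without αPD-1 + corin sample 2.

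Shares of CD8 T cells with a ligand UMI were set side by side as well. At 1000 UMIs per cell, 37.5%, 51.4% and 45.9% of CD8 T cells under αPD-1 alone had a Ccl5 UMI, and 76.7%, 75.4% and 89.6% under αPD-1 + corin. For Ccl4 the shares were 15.7%, 22.6% and 15.9% against 35.0%, 40.7% and 50.5%. Neither gene's groups overlapped, and 10.2% of genes in this lineage were separated in that direction. For Ccl3 the shares were 12.3%, 19.6% and 12.4% against 11.7%, 38.1% and 39.9%, with overlap. Each separated pair had p = 0.1 in the two-sided exact permutation test, the smallest that 3 against 3 samples allow, and adjusted p = 0.255 over 28 pairs. Unthinned shares are higher (Ccl5 46.4% to 59.7% against 81.7% to 96.6%). For comparison, 2.26% to 2.60% of αPD-1 B cells (median 1717 UMIs) had a Ccl5 UMI at the same depth. In melanoma cells of all 6 samples (median 3963 and 4714 UMIs) the shares were 1.27% to 3.36%. B cells of the αPD-1 + corin samples are not given here, and the source of these UMIs was not tested.

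The CD8 T cells of the groups were also differently composed. Cells of effector subclusters (led by Prss2, Gzmk and Cxcr6, or by Gzmf, Gzmc and Prf1) made up 30.7% ± 8.05 under αPD-1 alone and 65.8% ± 4.15 under αPD-1 + corin, subclusters 0, 2, 5 and 10 together 55.8% ± 9.66 and 14.1% ± 4.97, and cycling ones 11.7% ± 2.84 and 19.5% ± 1.06. None of these shares overlapped. Within the effector cells Ccl5 was at 5880 ± 1689 CPM under αPD-1 alone and 6429 ± 1632 under αPD-1 + corin (SD, n = 3 each). Ccl3 was at 1202 ± 502 and 1461 ± 998 CPM and Ccl4 at 1524 ± 664 and 1380 ± 655 CPM in these cells. All 3 genes overlapped between the groups there. Subclusters 0, 2, 5 and 10 were unlike each other and differed in their make-up between the groups. Subcluster 0 counted 345 αPD-1 and 8 αPD-1 + corin cells with Ccl5 at 667 and 453 CPM. Subcluster 2, led by Klra6, Klra1, Klra7, Cd7 and Ly6c2, counted 60 and 81 cells with Ccl5 at 4808 and 5423 CPM. With all 4 left out, the CD8 T cell differences were 0.36 for Ccl3 (adjusted p = 0.979), 0.18 for Ccl4 (0.988) and 0.23 for Ccl5 (0.973), and edgeR called 0 of 6657 genes (355 at an unadjusted p under 0.05).

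**Figure D3:**
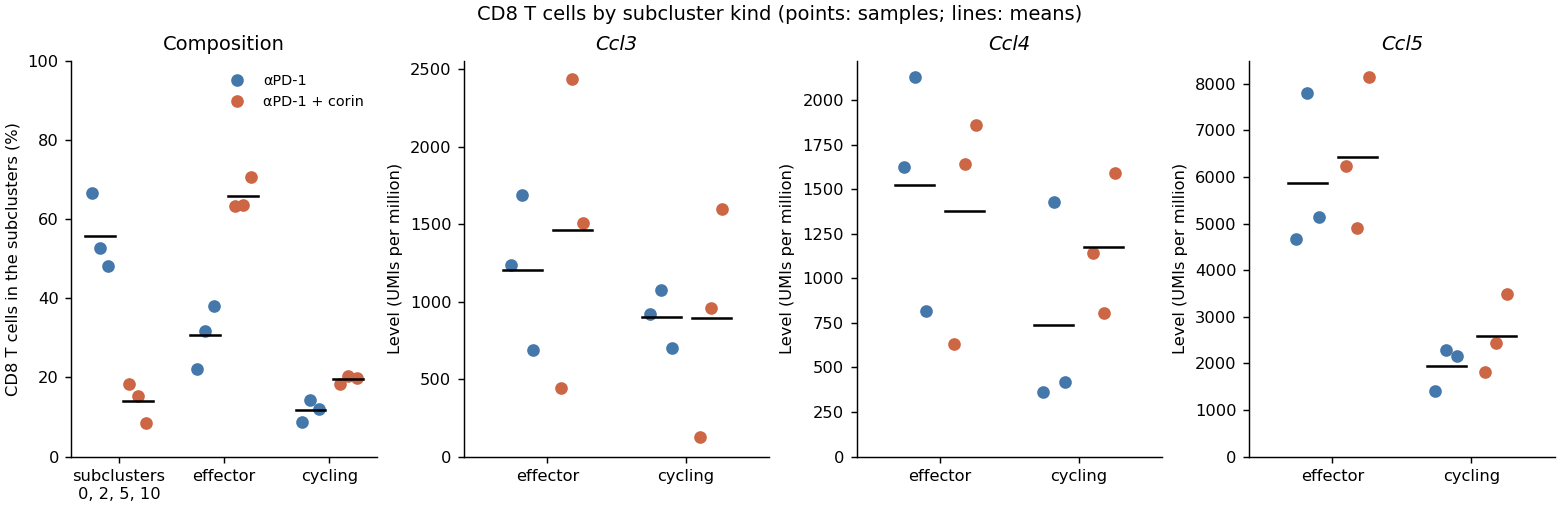
Composition of CD8 T cells (percent of cells) and the levels of Ccl3, Ccl4 and Ccl5 (CPM) within effector and cycling subclusters, 1 point per sample and lines at the means. Effector cells took a larger share in all 3 αPD-1 + corin samples, whereas the effector levels overlapped for the 3 genes.

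In NK cells, innate cytotoxic lymphocytes, no difference between the groups was called among the 3 ligands (0.887% of 2592 genes were called). Ccl5 was at 4186, 4019 and 5682 CPM under αPD-1 alone and 3209, 4969 and 6359 CPM under αPD-1 + corin, with a log2 fold change of 0.13 ± 0.16 (adjusted p = 0.809). Ccl3 was at 604, 478 and 390 against 285, 239 and 456 CPM (−0.46 ± 0.22, adjusted p = 0.411). Only αPD-1 + corin sample 3 overlapped the αPD-1 samples, and without it Ccl3 was called lower (−0.87, adjusted p = 0.0439). The share of NK cells with a Ccl3 UMI was lower in all αPD-1 + corin samples (23.8%, 22.7% and 23.4% against 14.3%, 15.2% and 20.6%), as for 6.28% of genes in NK cells. Cd8a and Cd8b1 moved in the same direction, summing to 48.0, 61.7 and 266 CPM in αPD-1 NK cells and 0, 34.1 and 40.6 CPM in αPD-1 + corin NK cells. The same shares of the CD8 T cell Ccl3 level would be 20.4, 40.0 and 124 CPM and 0, 45.6 and 41.5 CPM, and their part was not tested. Ccl4 had a log2 difference of −0.086 (adjusted p = 0.940), and DESeq2 called 0 of the 3 genes, 1 of which (Ccl3) had an unadjusted p under 0.05 (11.6% of all genes).

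In macrophages, Ccl3 and Ccl4 were higher in all 3 αPD-1 + corin samples than in any αPD-1 sample, without passing the edgeR threshold. Ccl3 was at 465, 429 and 423 CPM under αPD-1 alone and 605, 809 and 610 CPM under αPD-1 + corin (log2 fold change 0.76 ± 0.16, adjusted p = 0.125). Ccl4 was at 919, 908 and 797 against 1029, 1388 and 1356 CPM (0.67 ± 0.16, adjusted p = 0.153). These were 2 of the 4 genes, and 3.37% of genes at 10 CPM or more in macrophages lay apart in this direction. DESeq2 called both (0.77, adjusted p = 0.00199, and 0.67, adjusted p = 0.00780; 1.85% of genes), whereas edgeR called 0.052% of 11545 genes and, among the 4, none (3 had an unadjusted p under 0.05, against 16.6% of all genes). Without αPD-1 + corin sample 3, edgeR also called both (0.84, adjusted p = 0.00544, and 0.62, adjusted p = 0.0210), together with 21.7% of all genes. The share of macrophages with a Ccl3 UMI at 1000 UMIs was 25.1%, 21.7% and 23.3% against 31.4%, 35.5% and 30.1%, and with a Ccl4 UMI 32.2%, 29.0% and 27.9% against 41.3%, 43.0% and 42.4%. Neither overlapped, as for 3.93% of genes in this direction. Neutrophil transcripts moved in the same direction. S100a8, S100a9 and Retnlg summed to at most 90.8 CPM in αPD-1 macrophages and to 992, 1152 and 110 CPM in αPD-1 + corin macrophages. Scaled to that share, neutrophil Ccl3 would give 166, 224 and 48.6 CPM and Ccl4 96.7, 79.6 and 33.7 CPM in the latter. Their part in the differences was not tested.

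Ccr1 in macrophages was at 108, 82.2 and 115 CPM against 191, 213 and 95.6 CPM (0.86 ± 0.29, adjusted p = 0.234), αPD-1 + corin sample 3 falling among the αPD-1 samples. Without that sample it was called (1.15, adjusted p = 0.00206). Ccl5 ranged from 96.8 to 166 CPM under αPD-1 alone and from 82.7 to 525 CPM under αPD-1 + corin (1.16 ± 0.57, adjusted p = 0.335), and 5.02% to 5.73% and 3.36% to 17.3% of macrophages held a UMI at 1000 UMIs.

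Macrophage clusters differed in their chemokine levels. Cluster 1, led by Mmp12, Lgals3, Hilpda and Mmp13, held the most Ccl3 (794 CPM in αPD-1 and 1137 CPM in αPD-1 + corin cells) and Ccl4 (1595 and 2033 CPM) among the 5 clusters with more than 100 cells in both groups. Cluster 0, led by Ms4a7 and the C1q genes, held 432 and 517 CPM of Ccl3. Cluster 2, led by Lyve1, Fcna and Cbr2, held 234 and 388 CPM of Ccl3 and 65.3 and 175 CPM of Ccr1. Cluster 17, led by Ppbp, Ccl24 and Arg1, counted 2 αPD-1 and 456 αPD-1 + corin cells and carried Ccr1 at 301 CPM in the latter. Cluster 2 counted 232 αPD-1 and 2158 αPD-1 + corin cells, 1788 of them in 1 sample. These values pool the cells of a group and were not tested.

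In monocytes, the blood-derived precursors of tumor macrophages, Ccl3 differed in the opposite direction from macrophages. It was at 654, 785 and 667 CPM under αPD-1 alone and 334, 418 and 620 CPM under αPD-1 + corin (−0.58 ± 0.19, adjusted p = 0.164). Ccl4 was at 681, 452 and 674 against 703, 1036 and 841 CPM (0.51 ± 0.17, adjusted p = 0.174). Ccr1 was at 170, 182 and 204 against 279, 230 and 238 CPM (0.43 ± 0.15, adjusted p = 0.199). None of these 3 of 4 genes overlapped between the groups, as for 20.3% of genes in monocytes in either direction, and 0.646% of 7125 genes were called, none of the 4 by edgeR or DESeq2 (3 had an unadjusted p under 0.05, against 14.6% of all genes). Without αPD-1 + corin sample 3, Ccl3 was called lower (−0.93, adjusted p = 0.00113, 4.6% of genes called), whereas with the 4 genes and the markers kept among the clustering genes its difference was 0.12. At 1000 UMIs per cell, 28.4%, 29.7% and 28.7% of αPD-1 monocytes held a Ccl3 UMI against 27.1%, 19.6% and 27.2% of αPD-1 + corin monocytes, as for 7.39% of genes separated downward. Ccl4 shares were 20.9%, 24.7% and 22.4% against 29.3%, 34.8% and 29.7%, as for 5.89% separated upward. Neutrophil transcripts moved with the group, in the opposite direction to Ccl3 and the same direction as Ccl4 and Ccr1: S100a8, S100a9 and Retnlg summed to 14.8, 8.57 and 46.9 CPM in αPD-1 monocytes and 2272, 911 and 335 CPM in αPD-1 + corin monocytes. Scaled to that share, neutrophil Ccl3 would give 381, 178 and 147 CPM in the latter, Ccl4 221, 63.0 and 102 CPM and Ccr1 40.1, 15.7 and 8.67 CPM, beside at most 7.40, 4.65 and 0.587 CPM of these genes in αPD-1 monocytes. Their part in the results was not tested.

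The difference between lineages was itself tested with lineage and treatment in 1 model, the sample being a block. The Ccl3 difference was 1.41 ± 0.26 higher in macrophages than in monocytes on the log2 scale (adjusted p = 0.0462, 0.078% of genes called) and 1.73 ± 0.33 higher in neutrophils than in monocytes (adjusted p = 0.00356, 0.687% called). The Ccl3 difference was also 1.26 ± 0.30 higher in CD8 T cells than in NK cells (adjusted p = 0.0203, 0.895% called). For Ccl5 it was 1.59 ± 0.29 lower in CD8 than in CD4 T cells (−1.59, adjusted p = 0.0158, 0.0854% called) and 2.98 ± 0.64 higher in neutrophils than in monocytes (adjusted p = 0.00851). The Ccl5 difference between mature DC and macrophages (1.78 ± 0.40) had adjusted p = 0.0504 (0.126% called). Of the 18 gene and lineage-pair differences fitted, 5 were called. Each of the 5 calls was lost without at least 1 sample. The macrophage to monocyte difference in Ccl3 was called without αPD-1 + corin sample 3 (1.79) and not without any 1 of the others (adjusted p = 0.0604 to 0.814). The neutrophil to monocyte difference was lost without αPD-1 sample 3 for Ccl3 (adjusted p = 0.0612), and without αPD-1 samples 2 or 3 for Ccl5 (2.58 and 1.48), which was at 5.25 without αPD-1 sample 1. For Ccl3 in CD8 T against NK cells it was lost without αPD-1 sample 1 (0.94) or αPD-1 + corin samples 2 (0.78) or 3 (1.38). For Ccl5 in CD8 against CD4 T cells it was lost without αPD-1 sample 3 (−1.37) or αPD-1 + corin sample 1 (−1.67).

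Neutrophils, short-lived phagocytes that Ccr1 ligands attract, expressed Ccl3, Ccl4 and Ccr1 in both groups. Ccl3 was at 3400, 5060 and 1946 CPM under αPD-1 alone (164, 277 and 67 UMIs) and 3475, 5977 and 6425 CPM under αPD-1 + corin (0.67 ± 0.38, adjusted p = 0.513). Ccl4 was at 3918, 3178 and 494 against 2017, 2120 and 4452 CPM (0.22 ± 0.55, adjusted p = 0.920), and Ccr1 at 435, 402 and 320 against 366, 528 and 378 CPM (0.21 ± 0.30, adjusted p = 0.838). The groups overlapped for all 3. The αPD-1 values come from 12 to 17 cells per sample and are imprecise.

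Ccl5 in neutrophils was at 269, 18.3 and 116 CPM under αPD-1 alone (13, 1 and 4 UMIs) and 590, 797 and 2911 CPM under αPD-1 + corin. The groups did not overlap, as for 8.05% of genes in this direction, and the log2 fold change was 3.48 ± 0.76 (adjusted p = 0.0884, 0.102% of 2931 genes called). It was called by DESeq2 (3.49, adjusted p = 0.00855, 2.54% of genes called), without αPD-1 + corin sample 3 (2.48, adjusted p = 0.0428) and when cells with at least 200 genes were admitted (5.13, adjusted p = 0.0199). Across the alternative settings it was called in 3 of 13 (log2 fold change 0.86 to 5.13). Of the 6 fits without 1 sample, 1 called it (2.48 to 4.82). At 1000 UMIs, 11.8%, 0% and 0% of αPD-1 neutrophils held a Ccl5 UMI, against 19.0%, 21.2% and 43.7%, and Ccl4 shares were apart as well (41.2%, 57.1% and 40.0% against 63.5%, 57.8% and 73.6%), as for 20.6% of genes.

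T cell transcripts moved with Ccl5 in neutrophils. Cd3d, Cd3e and Cd3g summed to 394, 73.1 and 87.1 CPM in αPD-1 neutrophils and 244, 407 and 1247 CPM in αPD-1 + corin neutrophils, which is 16.6%, 2.88% and 3.91% and 8.94%, 16.5% and 41.6% of their level in T cells. The same shares of the T cell Ccl5 level would be 326, 105 and 104 CPM and 355, 545 and 2739 CPM, beside the measured 269, 18.3 and 116 CPM and 590, 797 and 2911 CPM. The order of the 3 αPD-1 + corin samples was the same for both. Their part in the Ccl5 difference was not tested.

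**Figure D4:**
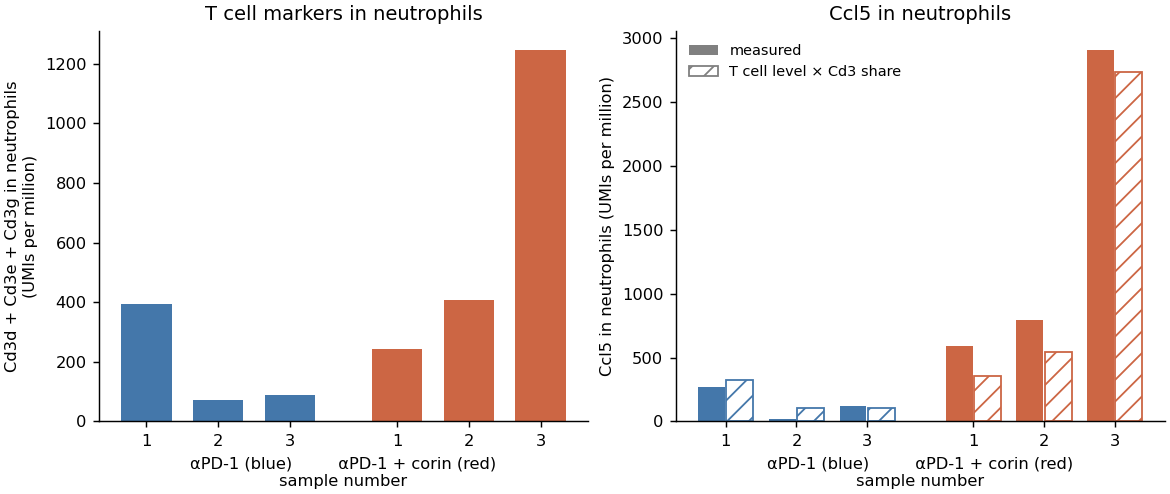
Summed level of Cd3d, Cd3e and Cd3g in neutrophils (left, CPM), and Ccl5 in neutrophils (right, CPM) as measured (solid bars) and as the Cd3 share of the T cell Ccl5 level (hatched bars), by sample. αPD-1 + corin sample 3 was highest for Cd3 (1247) and for both Ccl5 bars (2911 and 2739).

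Mature DC, the migratory antigen-presenting cells, had at least 10 cells in only 2 samples of each group (12 and 21 against 62 and 39 cells). Ccl5 was at 1165 and 3029 CPM under αPD-1 alone and 5801 and 5055 CPM under αPD-1 + corin (1.35 ± 0.36, adjusted p = 0.304). Its sign was negative under 7 other ways of forming the lineage (−0.80 to −0.40). Ccl3 was at 33.6 and 61.8 against 296 and 207 CPM (2.37 ± 0.49, adjusted p = 0.146), from 3 and 5 UMIs under αPD-1 alone. S100a8, S100a9 and Retnlg were at 0 in both αPD-1 samples and at 1797 and 367 CPM in the αPD-1 + corin mature DC. At that share neutrophil Ccl3 would give 302 and 71.5 CPM, and their part in the difference was not tested. Ccl4 was at 291 and 866 against 404 and 201 CPM (−0.94 ± 0.51, adjusted p = 0.645). Of 2203 genes 0.0454% were called; none of the 3 was called by edgeR or DESeq2, and 2 had an unadjusted p under 0.05 (8.67% of all genes). With 3 samples left, calls appeared and vanished with the sample removed: Ccl3 was called at 2.08 without αPD-1 sample 1, 2.87 without αPD-1 sample 3 and 2.59 without αPD-1 + corin sample 2. Ccl5 was called at 0.91, 2.21 and 1.44 in the same fits, and Ccl4 at −1.43 without αPD-1 sample 1.

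The UMIs of each gene were also divided by the lineage that held them. Neutrophils held 2.82%, 3.86% and 1.30% of all Ccl3 UMIs under αPD-1 alone and 36.8%, 78.7% and 12.3% under αPD-1 + corin. For Ccl4 the neutrophil share was 1.14% ± 0.81 and 21.8% ± 19.4, for Ccl5 0.0515% ± 0.057 and 16.5% ± 15.0, and for Ccr1 2.18% ± 0.80 and 28.5% ± 26.9 (SD, n = 3 each). No neutrophil share overlapped between the groups, and neutrophils were 0.350% and 13.3% of all cells on average. Monocytes held 9.99% ± 2.35 of Ccl3 under αPD-1 alone and 1.45% ± 1.69 under αPD-1 + corin, and 5.38% ± 2.70 and 1.72% ± 1.15 of Ccl4. Macrophages held the largest share of Ccr1 under αPD-1 alone (47.3% ± 4.62) and a similar average under αPD-1 + corin (48.0% ± 19.9). CD8 T cells held 26.5% ± 11.6 and 24.9% ± 19.0 of Ccl5, the last ranging from 9.03% to 45.9%. Mixed cells held 48.7% ± 9.37 and 18.0% ± 8.05 of Ccl5, so that a large part of this gene's UMIs was in cells given to no lineage. Each lineage share that did not overlap had an exact two-sided permutation p = 0.1 (adjusted p = 0.4).

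**Figure D5:**
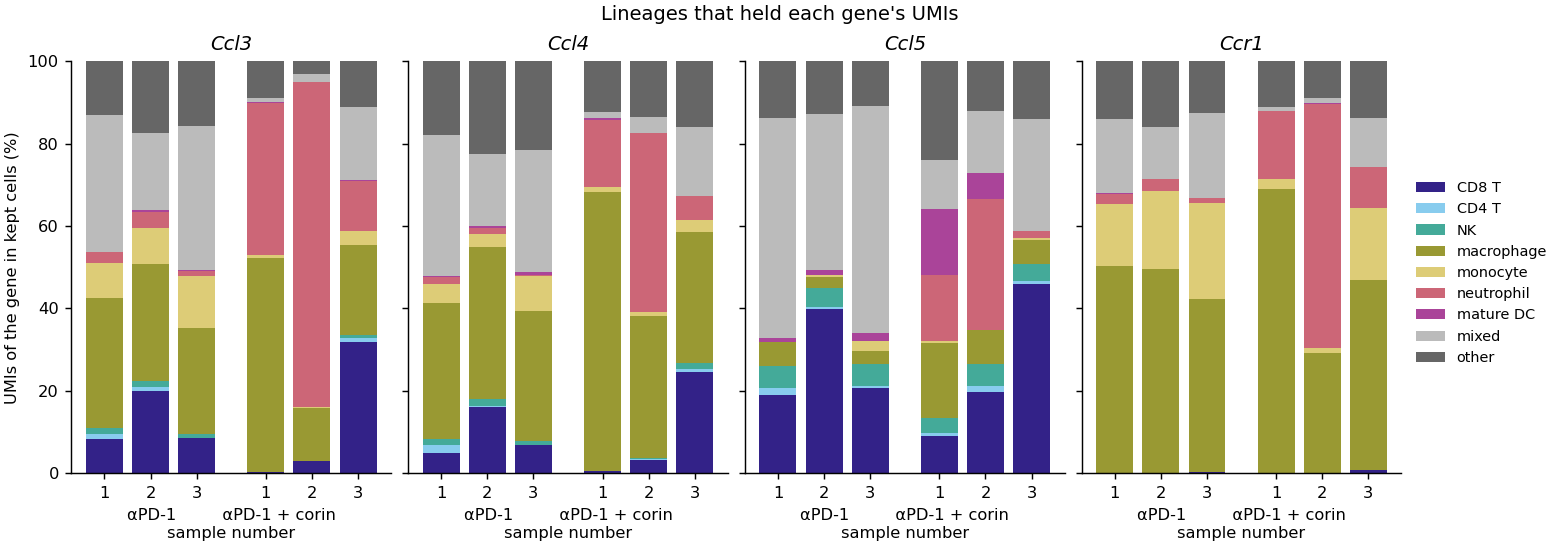
Percent of each gene's UMIs held by each lineage (colors), by mixed cells (light gray) and by all other cells (dark gray), 1 bar per sample. Neutrophils held 12.3% to 78.7% of Ccl3 under αPD-1 + corin and 1.30% to 3.86% under αPD-1 alone.

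Over all kept cells of a sample, Ccl3 was at 316, 431 and 309 CPM under αPD-1 alone and 597, 2040 and 708 CPM under αPD-1 + corin. Ccl4 was at 600, 700 and 473 against 778, 1315 and 1073 CPM, and Ccr1 at 46.2, 47.2 and 51.6 against 142, 239 and 52.2 CPM. None of these overlapped (exact two-sided permutation p = 0.1, the smallest possible), as for 15.4% of 9094 genes at 10 CPM or more in this direction. Ccl5 was at 616, 1020 and 711 against 233, 675 and 2247 CPM, which overlapped (exact permutation p = 0.9). The sample with the most neutrophils (αPD-1 + corin sample 2) was the highest for Ccl3, Ccl4 and Ccr1, and the one with the most CD8 T cells (αPD-1 + corin sample 3) the highest for Ccl5.

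The other genes of the CC chemokine system were described from a list of 47 (16 ligands, 11 receptors and 20 genes of receptor signaling). In CD8 T cells 28 were tested, 1 rose and 5 fell (median log2 fold change 0.12, against 0.02 over all genes). Among all genes tested there 2.13% rose and 5.51% fell. The one that rose was Ccl1, a ligand of activated T cells (32.7 to 82.4 CPM, 1.27, adjusted p = 0.0199). Those that fell were the G protein regulator Rgs10 (−1.64, adjusted p = 0.000433), the phospholipase Plcb2 (−1.83, adjusted p = 0.00466), the gut-homing receptor Ccr9 (−2.79, adjusted p = 0.0107), Elmo1, which acts with Dock2 in cell migration (−0.75, adjusted p = 0.0254), and the arrestin Arrb1 (−1.30, adjusted p = 0.0427). All of these calls, that of Ccl1 included, were lost when T cells were classed by subcluster (0 of 7662 genes called by edgeR). They were also lost with the same subclusters left out as for the ligands above (0 of 6657 genes). The part of the CD8 T cell make-up in these differences was not tested. Rgs10 and Plcb2 were called without each sample in turn. Arrb1 was not called without any 1 of the 6 (−1.42 to −1.13), Elmo1 not without αPD-1 samples 1 or 3 or αPD-1 + corin samples 2 or 3 (−0.63, −0.78, −0.62 and −0.69), Ccl1 not without αPD-1 samples 1 or 2 or αPD-1 + corin sample 2 (1.08, 1.11 and 1.04), and Ccr9 not without αPD-1 samples 1 or 2 or αPD-1 + corin sample 3 (−2.77, −2.51 and −1.30).

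In CD4 T cells 19 genes of the list were tested (median 0.03, against −0.02 over all genes), 1 rose and 1 fell, and 6 had an unadjusted p under 0.05; the shares over all genes were 2.25%, 3.14% and 18.3%. The Treg-associated receptor Ccr8 rose (84.1 to 230 CPM, 1.34, adjusted p = 0.0135), and the lymph node homing receptor Ccr7 of naive T cells fell (71.4 to 7.45 CPM, −3.37, adjusted p = 0.00802). Ccr8 was not called without αPD-1 sample 2 (1.02), and Ccr7 not without αPD-1 sample 2 (−3.14) or αPD-1 + corin sample 2 (−2.16), while it was at −6.90 without αPD-1 + corin sample 3. DESeq2 called neither.

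In monocytes 29 genes were tested and 1 rose (0.295% of all genes), the monocyte attractant Ccl2 (945 to 2378 CPM, 1.33, adjusted p = 0.0203). The call was lost without either of αPD-1 samples 1 and 2 and αPD-1 + corin samples 1 and 2 (1.12 to 1.23). DESeq2 did not call Ccl2 and called 1 gene of the list, Rgs2 (−0.75, edgeR adjusted p = 0.0678). Of the 29, 12 had an unadjusted p under 0.05, against 14.6% of all genes. In macrophages 0 of 34 were called (12 at an unadjusted p under 0.05, against 16.6% of all genes), although DESeq2 called Ccl2, Ccl7, Ccl8, Ccr3 and Rac2 (1.85% of all genes). Of the 9 ligands tested there, 7 had positive differences (0.77 to 3.25, against a median of 0.01 over all genes), for example Ccl8 at 912 and 2124 CPM (1.37, adjusted p = 0.0984) and Ccl2 at 1325 and 2902 CPM (1.28, adjusted p = 0.214). In neutrophils 0 of 24 were called (4 unadjusted, against 12.4% of all genes). DESeq2 called 2 there, Ccl8 and Ccl9 (2.54% of all genes). NK cells had 0 of 17 called (3 unadjusted, against 11.6% of all genes, and 0 by DESeq2). Mature DC had 0 of 22 called (2 unadjusted, against 8.67% of all genes, and 0 by DESeq2).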

How the data were processed

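The members and the gene lists were chosen with earlier results of these data known. The authors deposited 1 gene-by-barcode matrix of raw UMI counts per sample (Cell Ranger 8.0 and Seurat 5.0.11, with GRCm39, per the submitters' processing notes), with 52281422 to 84276739 UMIs each. Promoter windows and positions are those of the Ensembl canonical transcript in GRCm39 with GENCODE M39, matched by Ensembl identifier for 4 of 4 genes. Barcodes were retained if they showed between 600 and 4000 detected genes with no more than 10% of UMIs from mitochondrial genes, and the barcodes with the highest Scrublet scores (0.4% per 1000 barcodes, 2002 in all) were removed; Scrublet's own threshold was not used. Cells were clustered with Seurat 5.3.0 and sctransform 0.4.2 (3000 variable genes without the 4 genes, the other CC system genes and the markers; 20 components; Louvain resolution 0.8) and clusters were named from marker lists. CD8 T cells had a Cd8a or Cd8b1 UMI and no Cd4 UMI, and CD4 T cells the converse; 1291 T cells met neither rule. UMIs were summed per sample and lineage with at least 10 cells and tested with edgeR 4.0.16 (quasi-likelihood, TMM, filterByExpr), with Benjamini-Hochberg adjustment over all genes and a threshold of 0.05. Differences between lineages used edgeR fits with the sample as a block, and single values the exact permutation test over samples (scipy 1.17.1). Intervals and floors cover counting error only. On simulated counts with 200 genes changed 4-fold, 162 were recovered in CD8 T cells and 174 in macrophages, with 8 and 9 false calls. All genes were given the same spread, and smaller changes were not simulated, so these counts do not give the power for smaller differences. The named genes were the 4 members in every lineage, up to 3 risen and 3 fallen genes of the CC list per lineage by adjusted p, and the 3 genes most like each member; Elmo1, Arrb1, the macrophage ligands and the genes called by DESeq2 1.42.0 alone were named after their values were seen. The alternatives were other normalization, filters, clusterings, depths, T cell rules and the omission of each sample; 1, counting T cells with macrophage transcripts as T cells, was chosen after seeing the data. Same-numbered samples of the groups did not deviate together (correlations of −0.162 to 0.064).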

Additional observations from a re-analysis of the deposited data

Results flagged for a closer look

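In 5 cases the treatment difference of a gene differed between lineages by a test of that difference (edgeR, log2 scale, adjusted p = 0.00356 to 0.0462). In these fits 0.078% to 0.895% of genes were called. Each of the 5 calls was lost without at least 1 sample, and Ccl3 in macrophages minus monocytes was called in 1 of 6 such fits. The Ccl5 difference in CD8 T cells minus that in CD4 T cells was −1.59. The Ccl3 difference in CD8 T cells minus that in NK cells was 1.26. For Ccl3 in macrophages minus monocytes it was 1.41, and in neutrophils minus monocytes 1.73. For Ccl5 in neutrophils minus monocytes it was 2.98, and T cell transcripts moved with Ccl5 in those neutrophils (244 to 1247 CPM of Cd3d, Cd3e and Cd3g under αPD-1 + corin).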

How the results depend on the processing

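The edgeR count of 1 called pair of 24 was 4 with DESeq2, 14 without a filter on low counts, 2 with LogNormalize clusters, without doublet removal, without an upper limit on genes, at a mitochondrial limit of 5%, with all variable genes kept and with cells carrying markers of another lineage left out, 3 at 200 genes or more per cell, 6 with cells thinned to 1000 UMIs, 0 with T cells classed by subcluster (Ccl5 in CD4 T cells 0.97, adjusted p = 0.298), and 3 to 7 without 1 sample. The CC system count was 3 to 34 and the count of lineage differences 2 to 6 without 1 sample. The share of all genes called moved with the setting as well, from 0.0454% to 7.64% per lineage in the main fits. It was 0.196% to 5.23% without the low-count filter, 0% to 15.7% thinned, and 0% and 0.269% by subcluster. Without 1 sample it reached 21.7% (macrophages, without αPD-1 + corin sample 3). Direction changed for Ccl3 in CD4 T cells by subcluster (−0.56), Ccl4 in NK cells without doublet removal (0.059), without other-lineage cells (0.031) and thinned (0.10), Ccl5 in NK cells with LogNormalize clusters (−0.14) and thinned (−0.12), Ccl3 in monocytes (0.12) and mature DC (−0.43) with all variable genes kept, and Ccl5 in monocytes without other-lineage cells (−1.22). Ccl5 in mature DC was −0.41 with LogNormalize clusters, −0.65 and −0.75 at the lower and higher resolution, −0.80 without doublet removal, −0.40 at 200 genes, −0.44 at 5% mitochondrial UMIs and −0.69 with all variable genes. In the lineage order, the mean over cells turned Ccl3 CD8 T cells over monocytes (−0.034), Ccl4 CD8 T over NK cells (−0.045) and Ccr1 mature DC over CD4 T cells (0.033), and the limit of 200 genes turned Ccl5 CD8 T cells over mature DC (−0.65), neutrophils over macrophages (−0.68), macrophages over monocytes (−0.71) and Ccr1 mature DC over CD4 T cells (0.89). Without 1 sample, the range was −1.02 to 2.68 for Ccl3 and −0.49 to 3.15 for Ccl4 in CD4 T cells, −0.50 to 0.17 for Ccl4 and −0.095 to 0.36 for Ccl5 in NK cells, −0.97 to 2.40 for Ccl5 in monocytes, −0.23 to 0.79 for Ccl4 and −0.033 to 0.45 for Ccr1 in neutrophils, −1.53 to 0.056 for Ccl4 in mature DC, and, in the order, −0.13 to 0.24 (Ccl3, monocytes over macrophages), −0.21 to 0.27 (Ccl5, CD8 T over mature DC), −0.0016 to 0.36 (Ccl4, NK over monocytes) and −1.14 to 0.77 (Ccr1, mature DC over CD4 T). The cause was not tested. With a replicate block, Ccl5 in CD4 T cells was 2.22 (adjusted p = 4.53e-05), 8 CC system genes were called, and Arrb1 (−1.16) and Ccl2 in monocytes (1.34) were not. Few cells (12 to 17 αPD-1 neutrophils, 4 to 21 αPD-1 mature DC per sample) limit the precision there.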

Other observations

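Dendritic cells outside the 7 lineages also carried Ccl4. Plasmacytoid DC held 1721 ± 214 CPM under αPD-1 alone and 1601 ± 111 CPM under αPD-1 + corin (SD, n = 3 each), with overlap. Conventional type 1 DC, which cross-present antigen, held 363 ± 35.7 and 546 ± 21.0 CPM, and type 2 DC 893 ± 215 and 680 ± 273 CPM. These differences were not tested.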
